A study of Homo sapiens with 4 samples.

Results

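The 10 integrin subunits described here are ITGA2, ITGA3, ITGA5, ITGA6, ITGAV, ITGB1, ITGB3, ITGB4, ITGB5 and ITGB8, taken as the lines of the deposited count table that carry these gene symbols. All 10 symbols were found among 23340 genes. Of these, 9 had enough counts to be tested, and the counts of ITGB8, which fell below edgeR's filter, are given without a test. The data are 4 RNA-seq libraries of poly-A+ RNA from A549, an established epithelial line from a human lung carcinoma. The 2 NOCT-KO libraries come from single-cell clones with the sample numbers 4 and 5, in which Nocturnin (NOCT), a protein under circadian control, was targeted by a lentiviral Cas9 and guide RNA, followed by puromycin selection and limiting dilution. The 2 other libraries, WT 1 and WT 2, are WT A549 cells grown in the same medium and collected before confluence. No source used here states if WT cells also passed through virus, selection and cloning, so an effect of NOCT-KO and an effect of these steps cannot be told apart.

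Integrins are receptors of the cell surface that each join 1 alpha and 1 beta chain and bind proteins of the extracellular matrix. The alpha chain largely sets which ligand is bound, and the tail of most beta chains recruits talin and kindlin, which switch the receptor to its active form and tie it to actin. ITGB1 is the partner of many alpha chains, ITGAV pairs with several beta chains to form receptors for the RGD sequence of fibronectin and vitronectin, and ITGB4 pairs with ITGA6 in hemidesmosomes, which anchor epithelia to laminin.

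ITGA2, which forms a collagen receptor with ITGB1, was higher than WT in both clones. ITGB1 itself was higher in clone 4 and lower in clone 5, and ITGAV was higher in clone 4 and close to WT in clone 5. Promoter sequences of these 3 genes are printed first because the results turn on them. Each is the 250 bases before the 5′-most start in RefSeq's table (build GRCh38.p14, while the count table was mapped to hg19), read 5′ to 3′ on the gene's strand. Capitals mark each GC box, the letters GGGCGG or their reverse complement CCGCCC, a motif bound by Sp1-type factors.
ITGA2, chr5:52989102-52989351, plus strand: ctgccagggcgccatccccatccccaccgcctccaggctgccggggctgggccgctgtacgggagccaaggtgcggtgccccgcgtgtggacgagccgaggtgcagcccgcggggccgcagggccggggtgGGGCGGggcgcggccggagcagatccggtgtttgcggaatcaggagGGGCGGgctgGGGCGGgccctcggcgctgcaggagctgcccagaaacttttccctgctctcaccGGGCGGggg
ITGB1, chr10:32958231-32958480, minus strand: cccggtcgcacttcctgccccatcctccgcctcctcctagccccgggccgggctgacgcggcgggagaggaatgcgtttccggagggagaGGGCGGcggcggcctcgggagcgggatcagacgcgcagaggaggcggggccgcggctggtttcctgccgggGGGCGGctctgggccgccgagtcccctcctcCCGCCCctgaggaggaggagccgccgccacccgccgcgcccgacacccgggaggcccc
ITGAV, chr2:186589806-186590055, plus strand: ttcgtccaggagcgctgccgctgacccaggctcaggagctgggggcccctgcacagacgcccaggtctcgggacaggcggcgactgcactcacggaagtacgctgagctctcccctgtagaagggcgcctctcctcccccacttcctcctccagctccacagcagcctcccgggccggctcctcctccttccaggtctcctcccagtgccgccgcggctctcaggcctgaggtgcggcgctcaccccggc
The ITGA2 stretch held 4 GC boxes, the ITGB1 stretch 3 and the ITGAV stretch 0. Of 27326 promoter windows of this length, 42.2% held at least 1. Neither TATAAA, the TATA box, nor the AP-1 site TGANTCA was found on either strand in these 3 windows, against 11.2% and 6.57% of all windows. RefSeq's table matched 7 of the 10 subunits. These letters describe the windows alone, and nothing in the counts tests a factor at them.

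Library totals ranged from 36873556 to 41963070 counts. Values are CPM, each library's counts scaled to a common depth by edgeR's TMM factors, and fold changes are log2 ratios of a clone or of NOCT-KO over WT with their standard error (SE) from edgeR's quasi-likelihood test, adjusted by Benjamini and Hochberg's method over 13143 genes. NOCT, listed as CCRN4L, stood at 29.3 CPM in clone 4 and 15.6 CPM in clone 5, against 20.8 CPM in WT 1 and 20.1 CPM in WT 2. Its mRNA was higher in clone 4 (0.52, SE 0.14, adjusted p = 0.0293 from edgeR) and not called in clone 5 (-0.39, adjusted p = 0.208 from edgeR). Gene-level counts cannot tell an edited transcript from an unedited one, so they do not check the knockout. The paper's methods name genotyping of the clones and a separate check of the mutation in their transcripts. KRT8 and KRT18, keratins of simple epithelia, were between 721 and 1357 CPM in every library, CDH1 between 11.2 and 18.4 CPM, and EPCAM at most 0.166 CPM, while KRT19 had no count. Of the alveolar type 2 list, ABCA3 had 42.6 CPM in clone 4 and 92.1 CPM in clone 5, against 50.3 CPM in WT 1 and 58.2 CPM in WT 2. LAMP3 reached at most 0.577 CPM and NKX2-1 at most 0.240 CPM. The surfactant genes SFTPA1, SFTPB and SFTPC of that list had no count. Whether such zeros come from the cells or from the counting was not tested, and that holds for every gene listed here with no count. Markers of endothelial cells summed to at most 0.144 CPM and those of leukocytes and platelets to at most 0.499 CPM. Of the fibroblast list DCN and THY1 had no count, and its sum was 34.4 CPM in clone 4 and 214 CPM in clone 5, against 217 CPM in WT 1 and 230 CPM in WT 2, mostly the collagen gene COL3A1. The epithelial sum, mostly KRT8 and KRT18, was 2586 CPM in clone 4 and 1501 CPM in clone 5, against 1670 CPM in WT 1 and 1864 CPM in WT 2. The part of these markers in the clone values was not tested. In bulk RNA, fewer cells of a type and less RNA per cell cannot be told apart.

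**Figure D1:**
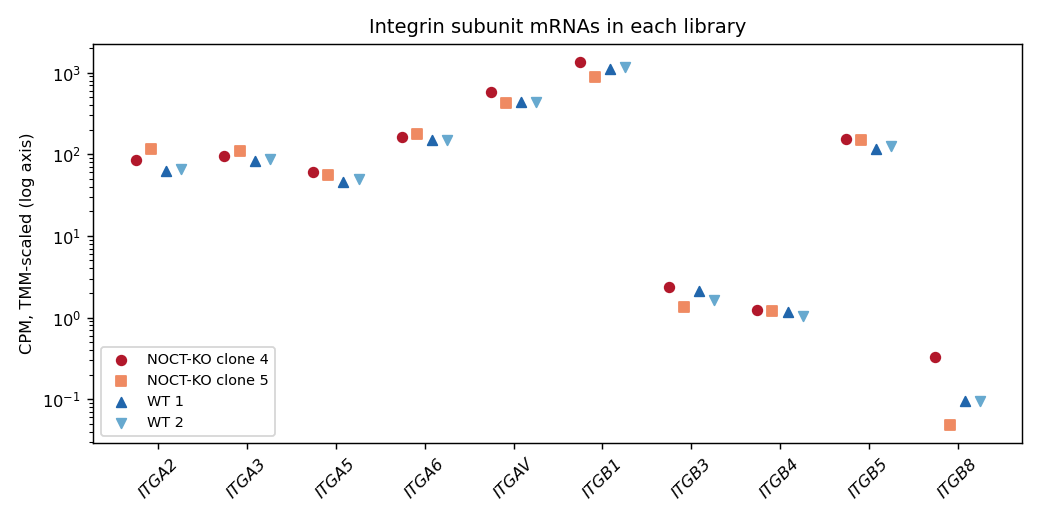
TMM-scaled CPM of the 10 integrin subunits on a log axis, with 1 point for each library (clone 4, clone 5, WT 1, WT 2). ITGB1 is the highest (880.0 to 1345 CPM), ITGB3 and ITGB4 lie between 1.06 and 2.39 CPM, and ITGB8 reaches at most 0.333 CPM.

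Levels of different subunits were compared per length of the canonical transcript (GENCODE v44 lifted to hg19). ITGB1 stood first with a mean of 302 CPM per kb over the 4 libraries, followed by ITGAV at 66.0, ITGB5 at 30.6, ITGA6 at 27.3, ITGA3 at 19.3, ITGA5 at 12.5 and ITGA2 at 10.6 CPM per kb. The neighbours ITGB5 and ITGA6 overlapped across libraries, ITGB5 from 26.1 to 34.5 and ITGA6 from 25.4 to 30.3 CPM per kb. ITGA5 and ITGA2 overlapped as well, from 10.9 to 14.5 and from 8.04 to 14.8 CPM per kb. With the union of all exons as the length, a choice made after seeing the data, ITGB1 at 77.3 and ITGAV at 24.0 CPM per kb still led, but ITGA6 at 23.8 then stood above ITGB5 at 20.8, and ITGA2 at 10.5 above ITGA3 at 9.63 and ITGA5 at 7.21 CPM per kb. ITGB3 had 0.316, ITGB4 0.198 and ITGB8 0.0159 CPM per kb of canonical transcript, and these 3 stood last among the 10 subunits by either length.

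ITGA2, the alpha chain of a collagen receptor, lies on chromosome 5 of hg19 from 52285170 to 52390609. It had 84.9 CPM in clone 4 and 116 CPM in clone 5, against 63.1 CPM in WT 1 and 66.6 CPM in WT 2. Both clones stood above both WT libraries, and clone 5 stood furthest. The log2 fold change was 0.39 for clone 4 over WT (SE 0.10, adjusted p = 0.0208 from edgeR), a ratio of 1.31. For clone 5 over WT it was 0.84 (SE 0.098, adjusted p = 0.000185 from edgeR), a ratio of 1.80. Clone 4 over clone 5 gave -0.45 (SE 0.12, adjusted p = 0.0174 from edgeR), so the clones also differed from each other. With upper-quartile factors the clone 4 call missed the threshold (0.37, adjusted p = 0.0545 from edgeR).
ITGA2 was among 4 subunits called higher in clone 4 and 2 called higher in clone 5. Of all genes tested, 11.4% were called in clone 4 over WT (5.41% higher) and 3.51% in clone 5 over WT (1.78% higher). No subunit was called lower in clone 4, where 6.02% of all genes were, and 1 was called lower in clone 5, where 1.73% were. The median log2 fold change over the 9 subunits tested was 0.34 in clone 4 and 0.20 in clone 5, against -0.011 and -0.0044 over all genes tested. Each clone is a single library, so its test takes the spread from the 2 WT libraries. The sources do not say whether these came from separate cultures, so the p-values measure a spread that may be technical. With no filter on low counts, 0 subunits passed in either clone over WT, and 1 passed in clone 4 over clone 5.

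ITGB1, the shared beta chain, lies on chromosome 10 from 33176201 to 33294720 on the minus strand. It had 1345 CPM in clone 4 and 880.0 CPM in clone 5, against 1122 CPM in WT 1 and 1158 CPM in WT 2. The clones thus stood on opposite sides of the WT libraries. Clone 4 over WT was 0.24 (SE 0.065, adjusted p = 0.0291 from edgeR) and clone 5 over WT was -0.37 (SE 0.067, adjusted p = 0.00534 from edgeR), ratios of 1.18 and 0.772. Clone 4 over clone 5 was 0.61 (SE 0.076, adjusted p = 8.31e-05 from edgeR), the widest called gap between clones among these 10 subunits. The rise in clone 4 missed the threshold in DESeq2's Wald test (0.24, adjusted p = 0.0939) and with upper-quartile factors (0.22, adjusted p = 0.0671 from edgeR). On the opposite strand the annotation places AK3P5 and ITGB1-DT over ITGB1, and neither is a line of the count table.

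ITGAV, the alpha chain of the RGD receptors, lies on chromosome 2 from 187454737 to 187545628. It had 572 CPM in clone 4 and 419 CPM in clone 5, against 435 CPM in WT 1 and 433 CPM in WT 2. Clone 4 stood apart, and clone 5 lay just under WT. Clone 4 over WT was 0.40 (SE 0.075, adjusted p = 0.00297 from edgeR), a ratio of 1.32, and clone 5 over WT was -0.051 (SE 0.076, 95% interval -0.21 to 0.11, adjusted p = 0.813 from edgeR). The difference between the clones passed its own test, at 0.45 for clone 4 over clone 5 (SE 0.088, adjusted p = 0.00328 from edgeR). In that comparison 3 of the 9 subunits passed, ITGAV and ITGB1 higher and ITGA2 lower in clone 4, where 13.1% of all genes tested were called, 5.73% higher and 7.38% lower.

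Among the partners of ITGAV, ITGB5, the beta chain of a vitronectin receptor on chromosome 3 from 124480795 to 124620265, was also higher in clone 4. It had 153 CPM in clone 4 and 148 CPM in clone 5, against 116 CPM in WT 1 and 126 CPM in WT 2, so neither clone overlapped WT. Clone 4 over WT was 0.34 (SE 0.097, adjusted p = 0.0351 from edgeR), while clone 5 over WT, at 0.29 (SE 0.097, 95% interval 0.085 to 0.50), did not pass (adjusted p = 0.142 from edgeR). Clone 4 over clone 5 was 0.048 (SE 0.11, 95% interval -0.19 to 0.29, adjusted p = 0.846 from edgeR). The call in clone 4 alone therefore does not show that the clones differ. The clone 4 call missed the threshold with DESeq2's Wald test (adjusted p = 0.0566), upper-quartile factors (adjusted p = 0.0788 from edgeR) and without the clone 5 library (adjusted p = 0.0503 from edgeR).
ITGB3, a beta chain of ITGAV receptors and of the platelet fibrinogen receptor, lies on chromosome 17 from 45331193 to 45391109. It had 86 counts in clone 4 and 56 in clone 5, against 90 in WT 1 and 68 in WT 2, or 1.35 to 2.39 CPM. Neither clone passed the test, and the 95% interval of clone 4 over WT ran from -0.51 to 1.19 and that of clone 5 over WT from -1.38 to 0.41. A change of 1 on the log2 scale was therefore within reach of these counts in either clone.
ITGB8, a beta chain that with ITGAV binds latent TGF-beta, lies on chromosome 7 from 20370325 to 20455377 and had few counts. It had 12 counts in clone 4 and 2 in clone 5, against 4 in each WT library, too few to be tested.

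**Figure D2:**
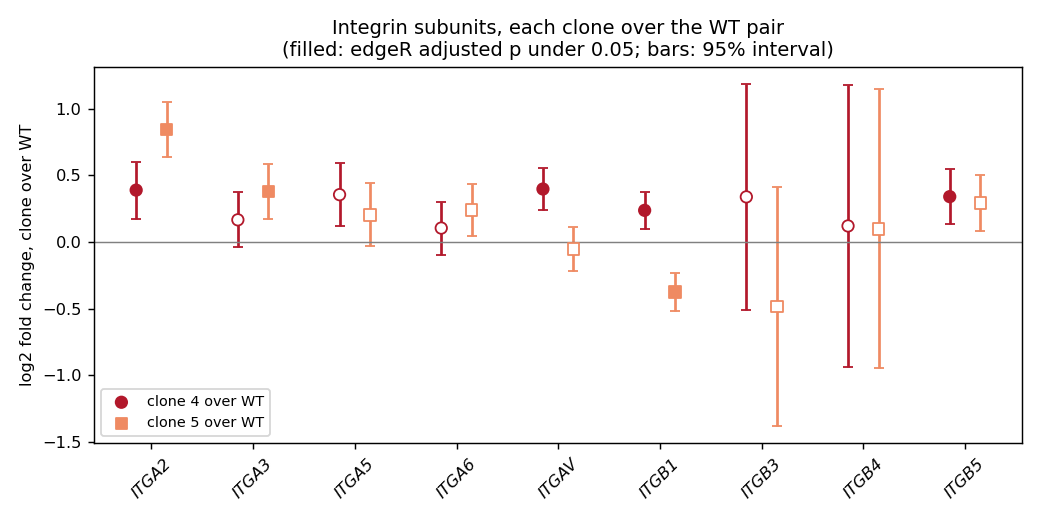
Log2 fold change of each NOCT-KO clone over the WT pair for the 9 subunits tested, with 95% intervals from edgeR and filled points for an adjusted p under 0.05. ITGA2 is above 0 in both clones, ITGB1 is above 0 in clone 4 (0.24) and below in clone 5 (-0.37), and the intervals of ITGB3 and ITGB4 are the widest.

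ITGA3 and ITGA6 form laminin receptors with ITGB1, and ITGA5 forms the main fibronectin receptor with it. All of them lay above both WT libraries in both clones, but only ITGA3 in clone 5 passed the test. ITGA3, on chromosome 17 from 48133332 to 48167845, had 95.8 CPM in clone 4 and 111 CPM in clone 5, against 83.8 CPM in WT 1 and 86.7 CPM in WT 2. Clone 5 over WT was 0.38 (SE 0.095, adjusted p = 0.0424 from edgeR), a ratio of 1.30, and clone 4 over WT was 0.17 (SE 0.096, 95% interval -0.040 to 0.37, adjusted p = 0.329 from edgeR). The difference between the clones was not called (-0.21, SE 0.11, adjusted p = 0.259 from edgeR). This clone 5 call missed the threshold with DESeq2's Wald test (adjusted p = 0.088), limma-voom (adjusted p = 0.0508), upper-quartile factors (adjusted p = 0.116 from edgeR) and without the clone 4 library (adjusted p = 0.074 from edgeR).
ITGA5, on chromosome 12 from 54789045 to 54813050, had 61.5 CPM in clone 4 and 55.4 CPM in clone 5, against 46.4 CPM in WT 1 and 49.7 CPM in WT 2. Clone 4 over WT was 0.36 (SE 0.11, 95% interval 0.12 to 0.59) and was not called (adjusted p = 0.0513 from edgeR). It passed with DESeq2 size factors (adjusted p = 0.0475 from edgeR) and with halved counts (adjusted p = 0.0357 from edgeR). Every other alternative that gave a test missed the threshold. Among them were DESeq2's Wald test (adjusted p = 0.162) and limma-voom (adjusted p = 0.07). Upper-quartile factors (adjusted p = 0.0987 from edgeR) and no filter on low counts (adjusted p = 0.179 from edgeR) missed it too. Clone 5 over WT was 0.20 (SE 0.11, adjusted p = 0.407 from edgeR).
ITGA6, on chromosome 2 from 173292082 to 173371187, had 161 CPM in clone 4 and 176 CPM in clone 5, against 151 CPM in WT 1 and 148 CPM in WT 2. Its fold changes were 0.11 in clone 4 (95% interval -0.094 to 0.30) and 0.24 in clone 5 (95% interval 0.043 to 0.44), and neither passed (adjusted p = 0.549 and 0.21 from edgeR).
ITGB4, the hemidesmosomal partner of ITGA6 on chromosome 17 from 73717408 to 73753899, had 44 counts in clone 4 and 50 in clone 5, against 50 in WT 1 and 44 in WT 2. That is 1.06 to 1.22 CPM. GALK1, on the opposite strand, overlaps it and had 3.94 to 6.60 CPM. No source used here gives the strand setting of the counting, so the ITGB4 counts may be shared with GALK1. The 95% intervals of ITGB4 reached from -0.94 to 1.18 in clone 4 and from -0.95 to 1.15 in clone 5.

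Taking both clones as 1 group against WT, none of the 9 subunits passed edgeR's test, and 0% of the 13143 genes did. At an unadjusted p under 0.05 from edgeR there were 4 subunits (ITGA2, ITGA3, ITGA5 and ITGB5), and 553 of the 13143 genes tested. DESeq2's Wald test and limma-voom called 0 subunits. ITGA2 averaged 101 ± 22.3 CPM in NOCT-KO cells and 64.8 ± 2.49 CPM in WT cells (SD, n = 2 each), a log2 fold change of 0.64 (SE 0.17, adjusted p = 0.971 from edgeR). ITGB1 averaged 1112 ± 328 CPM in NOCT-KO cells and 1140 ± 26.1 CPM in WT cells (SD, n = 2 each), a log2 fold change of -0.036 (SE 0.20, adjusted p = 0.995 from edgeR). ITGAV averaged 495 ± 108 CPM in NOCT-KO cells and 434 ± 0.798 CPM in WT cells (SD, n = 2 each). For these 3 genes the SD between clones was larger than that between the WT libraries. For 6 of the 9 subunits (ITGA2, ITGA3, ITGA5, ITGA6, ITGB4 and ITGB5) both clones lay above both WT libraries, and for 0 both lay below, where 16.4% and 17.9% of all genes tested did so. For ITGB4 that order rested on 1.20 CPM in clone 5 against 1.19 CPM in WT 1. With upper-quartile factors the number was 5.
With 1 clone left out, this comparison becomes the other clone's single library against the WT pair and holds no spread between clones. Without clone 5, the log2 fold changes were 0.40 for ITGA2, 0.41 for ITGAV and 0.25 for ITGB1. Without clone 4, they were 0.85 for ITGA2 and -0.37 for ITGB1.

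Ratios of each alpha chain to ITGB1 were taken within a library, from CPM per kb of canonical transcript, and carry no test. They share the ITGB1 level, which was lowest in clone 5, so each of them was highest in clone 5 in part by construction. ITGA2 over ITGB1 was 0.0301 in clone 4 and 0.0630 in clone 5, against 0.0268 in WT 1 and 0.0274 in WT 2. ITGA3 over ITGB1 was 0.0544 in clone 4 and 0.0964 in clone 5, against 0.0571 in WT 1 and 0.0572 in WT 2. For ITGA6 over ITGB1 the ratio was 0.0767 in clone 4 and 0.129 in clone 5, against 0.0862 in WT 1 and 0.0820 in WT 2. For these 3 pairs the alpha chain was itself highest in clone 5. ITGA5 over ITGB1 was 0.0402 in clone 4 and 0.0553 in clone 5, against 0.0363 in WT 1 and 0.0377 in WT 2, although ITGA5 itself was highest in clone 4. ITGAV over ITGB1 was 0.226 in clone 4 and 0.253 in clone 5, against 0.206 in WT 1 and 0.199 in WT 2, although ITGAV itself was lowest in clone 5. The size of such ratios depends on the length used: with the union of all exons the ratio of the mean levels was 0.136 for ITGA2, 0.124 for ITGA3 and 0.308 for ITGA6 over ITGB1. Ratios between libraries within 1 pair do not depend on it. The sum of ITGA2, ITGA3, ITGA5 and ITGA6 over ITGB1 was 0.201 in clone 4 and 0.343 in clone 5, against 0.206 in WT 1 and 0.204 in WT 2. ITGAV over ITGB5 went the other way, with 2.36 in clone 4 and 1.79 in clone 5, against 2.37 in WT 1 and 2.17 in WT 2. Of the mRNA of the 5 alpha chains, ITGAV made up 52.8% in clone 4 and 42.4% in clone 5, against 49.9% in WT 1 and 49.3% in WT 2. ITGA2 made up 7.04% in clone 4 and 10.6% in clone 5, against 6.50% in WT 1 and 6.80% in WT 2. With the union of all exons as the length, ITGAV made up 35.9% in clone 4 and 26.5% in clone 5, against 33.1% in WT 1 and 32.7% in WT 2, and ITGA2 made up 13.0% in clone 4 and 18.1% in clone 5, against 11.8% in WT 1 and 12.3% in WT 2. By either length ITGAV had its lowest share and ITGA2 its highest in clone 5.

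**Figure D3:**
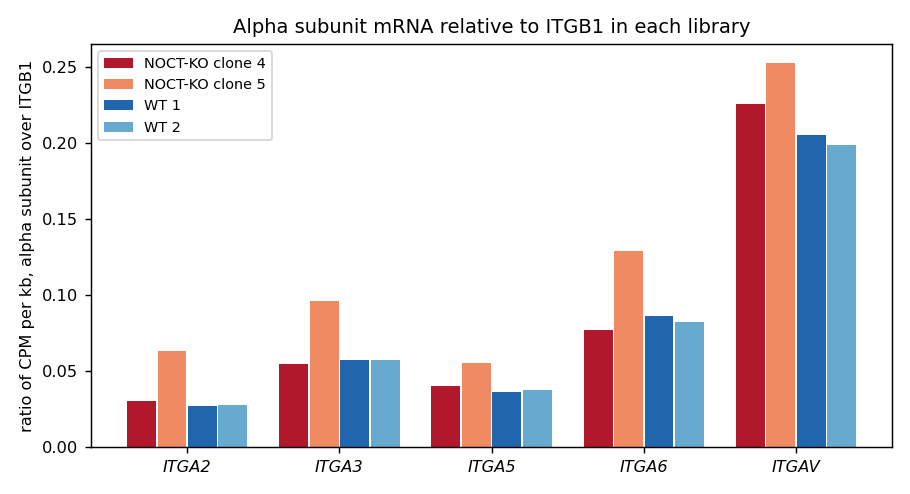
Ratio of CPM per kb of each alpha subunit to ITGB1, with a bar for each library (clone 4, clone 5, WT 1, WT 2). Clone 5, where ITGB1 was lowest, has the tallest bar for each alpha subunit, as for ITGA2 at 0.0630 against 0.0268 and 0.0274 in the WT libraries.

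The genes around each subunit were set beside it to show whether its chromosome region moved too. Genes that start within 5 Mb of ITGA2 (23 tested) had a median log2 ratio of -0.12 for clone 4 over WT and 0.064 for clone 5 over WT, against 0.39 and 0.84 for ITGA2 itself, with 0 called higher and 2 lower in clone 4 and 0 called in clone 5. Around ITGB1 (22 tested) the medians were -0.061 in clone 4 and -0.092 in clone 5, and 1 gene was called lower in each clone. Around ITGAV (30 tested) they were -0.024 and -0.042, with 4 genes called higher and 2 lower in clone 4 and 0 higher and 2 lower in clone 5. Over all 10 subunits these medians lay between -0.12 and 0.064.

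The other 16 integrin subunits in the table had lower mean levels per length than the 7 most abundant members. Of them 9 passed the filter, and 5 (ITGA4, ITGA8, ITGA11, ITGAD and ITGB2) had no count in any library. ITGAE, the alpha chain that binds E-cadherin, and ITGA1, another collagen-binding alpha chain, were the highest of them, with means of 7.35 and 1.64 CPM per kb. ITGA1 lies next to ITGA2 on chromosome 5 and was the only gene of these 9 called against WT, in clone 4, where halved counts called 2. It had 9.04 CPM in clone 4 and 22.9 CPM in clone 5, against 19.3 CPM in each of WT 1 and WT 2. Clone 4 over WT was -1.10 (SE 0.17, adjusted p = 0.000581 from edgeR), opposite in sign to ITGA2, and clone 5 over WT was 0.24 (adjusted p = 0.486 from edgeR). Clone 4 over clone 5 was -1.34 (adjusted p = 0.000219 from edgeR). ITGAE had 25.2 CPM in clone 4 and 23.1 CPM in clone 5, against 35.0 CPM in WT 1 and 28.5 CPM in WT 2, and was not called in either clone.

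Integrin ligands, the matrix and soluble proteins that these receptors bind, were called in both directions in both clones. Of 23 ligand genes tested, 8 were called higher and 4 lower in clone 4, and 4 higher and 6 lower in clone 5. Of all genes tested, 11.4% were called in clone 4 (5.41% higher, 6.02% lower) and 3.51% in clone 5 (1.78% higher, 1.73% lower). The ligand list was chosen with earlier results of these data known, so nothing particular to ligands is read from its counts. With no filter on low counts the clone 5 count of 10 ligand genes fell to 2. COL1A1, a chain of type I collagen, a ligand of the ITGA2 receptor, had 5.71 CPM in clone 4 and 7.74 CPM in clone 5, against 14.3 CPM in WT 1 and 15.7 CPM in WT 2. It was lower in clone 4 (-1.39, SE 0.20, adjusted p = 0.000357 from edgeR) and in clone 5 (-0.95, SE 0.19, adjusted p = 0.0113 from edgeR). The clone 5 call was lost with no filter on low counts (adjusted p = 0.179 from edgeR). ITGA2 itself was higher in both clones, and a link between the 2 genes was not tested. COL3A1, the collagen gene of the fibroblast list, lay within the WT range in clone 5. It had 26.7 CPM in clone 4 and 199 CPM in clone 5, against 187 CPM in WT 1 and 206 CPM in WT 2. LAMB3, a beta chain of laminin, had 15.4 CPM in clone 4 and 4.23 CPM in clone 5, against 7.21 CPM in WT 1 and 7.31 CPM in WT 2, and was called in clone 4 (1.08, SE 0.19, adjusted p = 0.0017 from edgeR) and not in clone 5 (-0.78, adjusted p = 0.0642 from edgeR).
The fibrinogen chain FGA, whose protein carries RGD, had 188 CPM in clone 4 and 0.625 CPM in clone 5, against 19.3 CPM in WT 1 and 24.8 CPM in WT 2, with log2 fold changes of 3.10 in clone 4 and -5.13 in clone 5 that both passed (adjusted p = 1.2e-09 and 2.78e-08 from edgeR). FGB, its partner chain, had 80.7 CPM in clone 4 and 0 counts in clone 5, against 11.2 CPM in WT 1 and 15.6 CPM in WT 2. TGFBI, an RGD-bearing matrix protein, was lower in both clones, at 41.8 CPM in clone 4 and 48.0 CPM in clone 5, against 77.3 CPM in WT 1 and 80.6 CPM in WT 2 (-0.92 and -0.72, adjusted p = 8.03e-05 and 0.00175 from edgeR). CYR61 (CCN1), a matrix-associated ligand of ITGAV receptors, was higher in clone 5 (0.61, SE 0.085, adjusted p = 0.000876 from edgeR), where it had 301 CPM, against 198 CPM in WT 1 and 196 CPM in WT 2, and its log2 fold change was 0.12 in clone 4 (adjusted p = 0.451 from edgeR). CTGF (CCN2), of the same family, was higher in both clones, at 94.8 CPM in clone 4 and 115 CPM in clone 5, against 75.0 CPM in WT 1 and 72.5 CPM in WT 2 (0.36 and 0.65, adjusted p = 0.0263 and 0.00141 from edgeR). Its call in clone 4 missed the threshold with DESeq2's Wald test (adjusted p = 0.0589) and upper-quartile factors (adjusted p = 0.0642 from edgeR).

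The genes of the adhesion machinery inside the cell are read against the 11.4% of all genes called in clone 4 and the 3.51% called in clone 5, and nothing particular to a list is read from its count. An unadjusted p under 0.05 from edgeR was found for 3121 of the 13143 genes tested in clone 4 over WT and for 2056 in clone 5 over WT. Of 35 activators and adaptors tested, 1 was called higher and 2 lower in clone 4 (1 in all with DESeq2's Wald test, 0 with no filter), and 0 were called in clone 5 by edgeR, DESeq2's Wald test or limma-voom, where 10 had an unadjusted p under 0.05 and halved counts called 1. TLN2, a talin, was lower in clone 4, at 6.32 CPM in clone 4 and 11.7 CPM in clone 5, against 11.1 CPM in WT 1 and 11.4 CPM in WT 2 (-0.83, SE 0.20, adjusted p = 0.013 from edgeR, but 0.072 with DESeq2's Wald test). KANK1, a talin-binding protein, was lower in clone 4 as well, at 13.9 CPM in clone 4 and 20.1 CPM in clone 5, against 26.4 CPM in WT 1 and 21.4 CPM in WT 2 (-0.78, SE 0.17, adjusted p = 0.00816 from edgeR). The tensin TNS4 was called higher there at 6.94 CPM in clone 4, while it had 5.96 CPM in clone 5, against 4.46 CPM in WT 1 and 3.03 CPM in WT 2 (0.89, adjusted p = 0.046 from edgeR), a call lost under 7 of the alternatives.
Of 4 genes listed for proteins that restrain integrin activation, edgeR called 0 in either clone, with 2 at an unadjusted p under 0.05 in clone 4 and 3 in clone 5, and DESeq2's Wald test and limma-voom called 0. PLEC, which ties ITGB4 to keratin, was higher in clone 5 (0.35, SE 0.067, adjusted p = 0.00785 from edgeR), at 856.0 CPM in clone 4 and 1029 CPM in clone 5, against 793 CPM in WT 1 and 819 CPM in WT 2. Of 11 membrane partners, tetraspanins and CAV1 among them, edgeR called 0 in either clone, as did DESeq2's Wald test and limma-voom, with 3 genes at an unadjusted p under 0.05 in clone 4 and 1 in clone 5. Of 10 trafficking genes, CLTC, the clathrin heavy chain, was called higher in clone 4 (0.82, SE 0.066, adjusted p = 1.68e-06 from edgeR), with 1353 CPM in clone 4 and 672 CPM in clone 5, against 754 CPM in WT 1 and 782 CPM in WT 2. None of these lists was tested as a set.

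**Figure D4:**
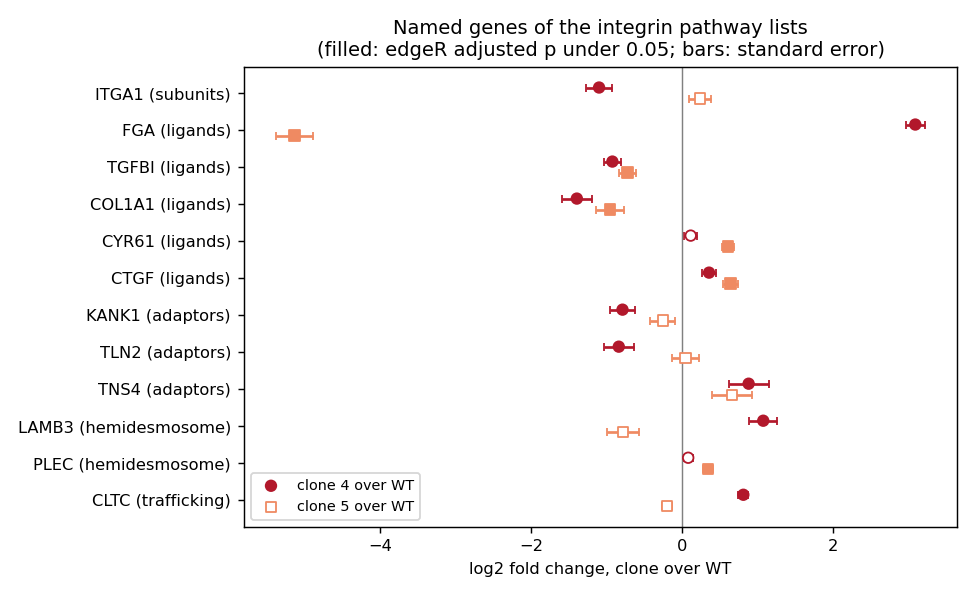
Log2 fold change over WT, with standard errors, for the genes named from the pathway lists that passed edgeR's test in at least 1 clone and had counts in every library (filled points passed). FGA is at 3.10 in clone 4 and -5.13 in clone 5, and COL1A1 and TGFBI are below 0 in both clones.

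Of the subunits with a mean of at least 5 CPM, ITGA2 had the widest range over the 4 libraries, 0.88 on the log2 scale. The 3 genes of 10046 whose centred log2 CPM lay nearest to its own were DGAT2, RAB20 and PHLDA2, at Euclidean distances of 0.0571, 0.0746 and 0.0923. PHLDA2 had 24.2 CPM in clone 4 and 32.7 CPM in clone 5, against 18.9 CPM in WT 1 and 18.3 CPM in WT 2. With 4 libraries, such likeness describes these samples alone.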

How the data were processed

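Poly-A+ RNA of 2 NOCT-KO clone libraries and 2 WT libraries was analysed. The deposited values were raw counts per gene, which the authors made with TopHat2 and HTSeq on hg19; versions, annotation and strand setting: not given in the sources used here. Between 99.1% and 99.2% of the nonzero counts were even numbers, and halved counts were tried as an alternative. Of 23368 lines, 28 carried a date in place of a symbol (0.2742% of counts) and were left out. Totals ran from 36873556 to 41963070 counts. edgeR 4.0.16 in R 4.3.3 was fitted to all genes that passed its filter (minimum count 10, minimum total 15), with TMM factors, the quasi-likelihood test and Benjamini-Hochberg adjustment at 0.05: in 2 groups for NOCT-KO over WT, and in 3 groups for each clone, with 1 residual degree of freedom. DESeq2 1.42.0, limma 3.58.1 (voom), other scalings and filters, and left-out libraries were alternatives. The fits were tested on simulated data. The subunits, pathway lists and markers were chosen with earlier results of these data known. All 10 subunits were named; of each list, the 4 genes with the smallest p in each clone and a mean of at least 5 CPM could be named. Coordinates come from GENCODE release 44 lifted to hg19, and symbols matched it for 19556 genes as given and 1900 by older name. Some genes of the pathway lists are not reported here and are not in the lists' counts.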

Additional observations from a re-analysis of the deposited data

Results flagged for a closer look

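Differences between the clones that passed edgeR's test of clone 4 over clone 5 are collected here for the subunits and for the genes named from the lists. The collection is not complete for the lists, which held further calls in this comparison. Of the 4 inactivators, 1 that is not named was lower in clone 4, where 13.1% of all genes tested were called. All values are log2 ratios of 1 library over 1 library. Their tests take the spread from the WT libraries, moderated across genes, and that spread may be technical. With no filter on low counts the calls of ITGA2, ITGAV, CYR61, PLEC, KANK2, TLN2 and DAB2 were lost. Among the integrin subunits these were ITGB1 at 0.6115 (adjusted p = 8.31e-05), ITGAV at 0.4485 (adjusted p = 0.00328) and ITGA2 at -0.455 (adjusted p = 0.0174). Of the other subunits ITGA1, a collagen-binding alpha chain, was at -1.34 (adjusted p = 0.000219).

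Of the ligands, FGA was at 8.228 (adjusted p = 2.41e-11) and CYR61 at -0.4943 (adjusted p = 0.00434). FGB was at least 10.13 higher in clone 4 on the log2 scale, taken against a floor of 3 counts in the clone 5 library, which had 0. LAMB3 was at 1.86 (adjusted p = 0.000101) and the hemidesmosome linker PLEC at -0.2655 (adjusted p = 0.0383). The PLEC call was also lost with DESeq2's Wald test (adjusted p = 0.13), with upper-quartile factors (adjusted p = 0.0596) and with the filter by 3 groups (adjusted p = 0.0564).

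Inside the cell, KANK2 was at 0.5993 (adjusted p = 0.00466) and TLN2 at -0.8855 (adjusted p = 0.0153, but 0.0971 with DESeq2's Wald test). CLTC was at 1.01 (adjusted p = 1e-06), and DAB2, an endocytic adaptor of integrin beta chains, at 0.5008 (adjusted p = 0.0161). Neither KANK2 nor DAB2 was called against WT in either clone.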

How the results depend on the processing

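Of 107 recomputed values of called subunit differences, 0 reversed, and 21 kept their direction and missed the threshold. The other 86 include the values without a WT library, which have no test and so kept no call. Those were counted with the 86 when they moved by less than the SD of the WT pair. Clone 4 over clone 5 does not draw on the WT level, so its values without a WT library could not move. The number of subunits called in clone 4 over WT was 4, but 2 with DESeq2's Wald test, 1 with upper-quartile factors and 0 with no filter on low counts. With no filter, clone 5 over WT gave 0 in place of 3, and clone 4 over clone 5 gave 1 in place of 3. For NOCT-KO over WT the count was 0 under every alternative that kept all 4 libraries. With 1 clone left out, that comparison is the other clone's single library against the WT pair, not NOCT-KO cells as a group. As each library was left out in turn, ITGAV ranged from -0.0486 to 0.41, ITGB1 from -0.37 to 0.25 and ITGB3 from -0.48 to 0.35 on the log2 scale. The cause of these changes was not tested. Leaving out a WT library in the fit by clone gives values with no test. No paired analysis was possible because the replicate numbers of the NOCT-KO and WT libraries share none. ITGB3, ITGB4 and ITGB8 had at most 90 counts a library, which limits what can be seen of them.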
